A study of Mus musculus with 20 samples.

Results

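Triglyceride, the storage fat of adipocytes, is built by a short chain of enzymes, and 10 genes of that chain were followed in mouse visceral fat: Gpd1, Gpam, Gpat4, Agpat2, Agpat3, Lpin1, Mogat1, Dgat1, Dgat2 and Pnpla3. A gene was taken where a probe set (a group of short probes on the array) was annotated to that symbol or an alias of it and to no other gene. All 10 genes were found, through 21 of the 45101 probe sets, out of 18194 genes with such a probe set. Each gene is described by its probe set with the highest mean log2 intensity over all arrays, and the remaining probe sets serve as a check.

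RNA of visceral fat from 20 female C57BL/6J mice was measured on Affymetrix whole-genome arrays, 1 for each mouse, in 4 groups of 5. The groups were HF pregnant and HF non pregnant mice, on a diet labelled 58% fat, and control pregnant and control non pregnant mice, on a diet labelled 10% fat. Per the methods the diets also differed in carbohydrate, with sucrose in the HF and corn starch in the control diet. Effects of fat and of carbohydrate therefore cannot be told apart. All mice were of the same strain, and pregnant mice had been mated with chow-fed males after weeks on their diet. The age label reads E18.5 even for non pregnant mice, and grouping therefore used only the labels of pregnancy and of diet. The methods state that mice came from different litters and that visible lymph nodes were dissected away. They give visceral fat as gonadal and mesenteric and the study's array legend names mesenteric fat, so which depots each array holds is not settled here. In such bulk tissue, fewer cells of a type and less RNA per cell cannot be told apart.

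Triglyceride synthesis starts when fatty acids, activated by coenzyme A, are attached to glycerol 3-phosphate. A first acyl group is added by a GPAT enzyme and another by an AGPAT enzyme, giving phosphatidic acid, whose phosphate is then removed by a lipin to give diacylglycerol. The last acyl group is added by DGAT1 or DGAT2, which are unrelated proteins that perform the same reaction, and diacylglycerol can also be made by MOGAT enzymes from monoacylglycerol. White fat depends on this pathway, and loss of AGPAT2 causes generalized lipodystrophy in humans and mice.

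Array medians lay between 60.69 and 64.73. The authors' normalization makes arrays alike, so the original brightness of the arrays cannot be read from these medians. A probe set was tested where at least 5 of 20 arrays exceeded an intensity of 100, which kept 19802 probe sets, and the representative probe sets of all 10 genes passed. Defining adipocyte markers were strongly present, with Adipoq (adiponectin) at a mean intensity of 20862 and 19911 in HF pregnant and HF non pregnant mice, against 21565 and 22995 in control pregnant and control non pregnant mice. Genes of pancreatic acinar cells stood out on the arrays of control pregnant mouse 2 and control non pregnant mouse 4. There the 9 matched acinar genes summed to 49254 and 40998, against 3384 in control pregnant mouse 5 and at most 1347 in all remaining mice. On the array of control pregnant mouse 2 the 8 intestinal epithelium genes also summed to 2448, against at most 530 in any other mouse. For the 3 tested liver genes, Alb (albumin), Ttr and Cyp2e1, the mean log2 deviation was 2.26 and 1.10 in HF non pregnant mice 1 and 2. It was at most 0.66 elsewhere, and Alb reached an intensity of 9042. Cyp2e1 went the other way between groups, with a mean of 5783 in HF non pregnant mice and at least 9714 in every other group. The summed intensity of the 6 matched liver genes was 16537 and 6514 in these 2 mice, against up to 16608 in other mice. The 2 arrays are called high in liver genes below by the mean deviation only. B cell genes varied widely in every group. Their summed intensity ranged between 774 and 6654 in pregnant and 1773 and 15003 in non pregnant HF mice, and between 367 and 8622 in pregnant and 657 and 4558 in non pregnant control mice.

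The broadest comparison asked how these enzymes differed between the HF and control diets, with the diet difference averaged over pregnant and non pregnant mice. All 10 genes had lower mean levels in HF mice, as did 42.4% of all tested probe sets, with a median log2 fold change of -0.61 where the median of all tested probe sets was 0.04. Gpd1, Agpat2 and Dgat2 fell, so 3 of 10 genes passed limma with Benjamini-Hochberg adjustment over all 19802 probe sets at 0.05, where 1.11% of all tested probe sets were called lower and 0.136% higher. At an unadjusted p under 0.05, 6 of the 10 were lower and none higher, against 13.5% of all tested probe sets lower and 16.1% higher. The calls depended on single arrays. Leaving out any 1 of the 20 left between 0 and 6 genes called, while the count over all tested probe sets moved between 41 and 4321, against 246 with all arrays. None of the 10 was called without HF pregnant mouse 1, 2, 3 or 4, HF non pregnant mouse 1, 3 or 5, control pregnant mouse 1 or 3, or control non pregnant mouse 3, 4 or 5.

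Gpd1 encodes the cytosolic glycerol 3-phosphate dehydrogenase, which supplies the glycerol backbone. Its log2 intensities were 9.10, 9.67, 9.30, 9.24 and 10.57 in HF pregnant mice and 9.49, 10.45, 9.91, 11.45 and 9.02 in HF non pregnant mice. In control pregnant mice they were 12.09, 10.76, 11.85, 10.39 and 10.72, and in control non pregnant mice 10.99, 10.40, 11.63, 11.58 and 11.74. HF mice thus lay mainly below 10.5 and control mice mainly above it, with HF pregnant mouse 5 and HF non pregnant mice 2 and 4 reaching into the control range. The diet difference was a log2 fold change of -1.40 (SE 0.31, n = 10 mice per diet, limma adjusted p = 0.0358), a 2.63-fold lower level in HF mice. A further Gpd1 probe set above the intensity filter gave -1.40 as well (limma adjusted p = 0.0376), and the remaining Gpd1 probe sets, both under the filter, gave -0.48 and 0.025.

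Neither GPAT that starts the chain passed the test in any comparison. Gpam, the mitochondrial GPAT1, had a diet difference of -0.23 (SE 0.19, limma adjusted p = 0.413), with group means of 12.37 and 12.04 in HF pregnant and HF non pregnant mice, against 12.49 and 12.37 in control pregnant and control non pregnant mice. Gpat4, a GPAT of the endoplasmic reticulum, had a diet difference of -0.22 (SE 0.10, limma adjusted p = 0.17), and its group means lay between 7.71 and 7.98. A Gpat4 probe set under the intensity filter gave 0.11.

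Agpat2, the acyltransferase that makes phosphatidic acid, fell on the HF diet by a log2 fold change of -1.35 (SE 0.29, limma adjusted p = 0.034), a 2.55-fold lower level in HF mice. Log2 intensities were 10.69, 11.07, 11.10, 10.59 and 12.04 in HF pregnant and 11.63, 12.09, 11.70, 13.12 and 10.66 in HF non pregnant mice. They were 13.45, 12.23, 13.45, 12.17 and 12.05 in control pregnant and 12.73, 12.07, 13.40, 13.30 and 13.36 in control non pregnant mice. Every control mouse exceeded every HF pregnant mouse, narrowly in the case of HF pregnant mouse 5, whereas HF non pregnant mice 2 and 4 lay within the control range. Agpat3, a related acyltransferase, had a diet difference of -0.43 (SE 0.15, limma adjusted p = 0.1).

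RefSeq promoter windows (GRCm38.p6, 250 bases before to 50 after the start) were matched for 6 of the 10 genes. The windows of Agpat2, which fell with the diet, and of Mogat1, whose levels most resembled those of Dgat2 among these genes, are shown to set side by side the starts of 2 genes that were low in the same mice. That of Agpat2 is chr2:26604368-26604667 on the minus strand, and that of Mogat1 is chr1:78510810-78511109 on the plus strand. Both are written 5′ to 3′ along the gene, with motif matches on either strand in capitals.
Agpat2: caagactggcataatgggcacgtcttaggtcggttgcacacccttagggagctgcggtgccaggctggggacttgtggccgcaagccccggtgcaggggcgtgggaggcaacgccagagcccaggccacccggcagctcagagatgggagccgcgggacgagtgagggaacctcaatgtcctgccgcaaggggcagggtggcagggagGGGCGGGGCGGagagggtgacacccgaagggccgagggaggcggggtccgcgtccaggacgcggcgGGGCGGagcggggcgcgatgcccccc
Mogat1: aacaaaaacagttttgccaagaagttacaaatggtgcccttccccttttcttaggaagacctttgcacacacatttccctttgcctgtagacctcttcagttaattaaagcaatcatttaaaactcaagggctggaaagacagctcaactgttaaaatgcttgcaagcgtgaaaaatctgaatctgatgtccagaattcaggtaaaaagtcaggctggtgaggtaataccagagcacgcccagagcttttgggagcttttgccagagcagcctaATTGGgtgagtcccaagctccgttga
The motifs searched were CACGTG (E-box), CCAAT (the CCAAT box), TGACCT (a nuclear receptor motif) and GGGCGG (GC box). The Agpat2 window held 3 GC boxes, of which those starting at -42 and -37 overlap and the other starts at 25 after the start, and its GC content was 72.0%. The Mogat1 window held no GC box and 1 CCAAT match on the opposite strand, starting at 25 after the start, with a GC content of 43.7%. Over 32851 RefSeq windows of 300 bases, GGGCGG was present in 35.7%, CCAAT in 37.4%, TGACCT in 16.3% and CACGTG in 7.15%.

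Lpin1 encodes lipin 1, the main phosphatidic acid phosphatase of fat. Its diet difference was -0.41 (SE 0.20, limma adjusted p = 0.179). Mogat1 makes diacylglycerol from monoacylglycerol and is a relative of Dgat2. Its log2 intensities were 6.96, 7.99, 6.60, 7.72 and 7.97 in HF pregnant and 8.25, 8.72, 8.35, 8.81 and 7.18 in HF non pregnant mice. They were 9.62, 8.28, 9.45, 7.96 and 8.56 in control pregnant and 8.60, 8.80, 9.23, 8.94 and 9.30 in control non pregnant mice. HF pregnant mice had the lowest mean, and HF pregnant mice 2 and 5 lay just above control pregnant mouse 4, the lowest control. The diet difference of -1.02 (SE 0.25) just missed the threshold in limma, with an adjusted p of 0.0532.

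**Figure D1:**
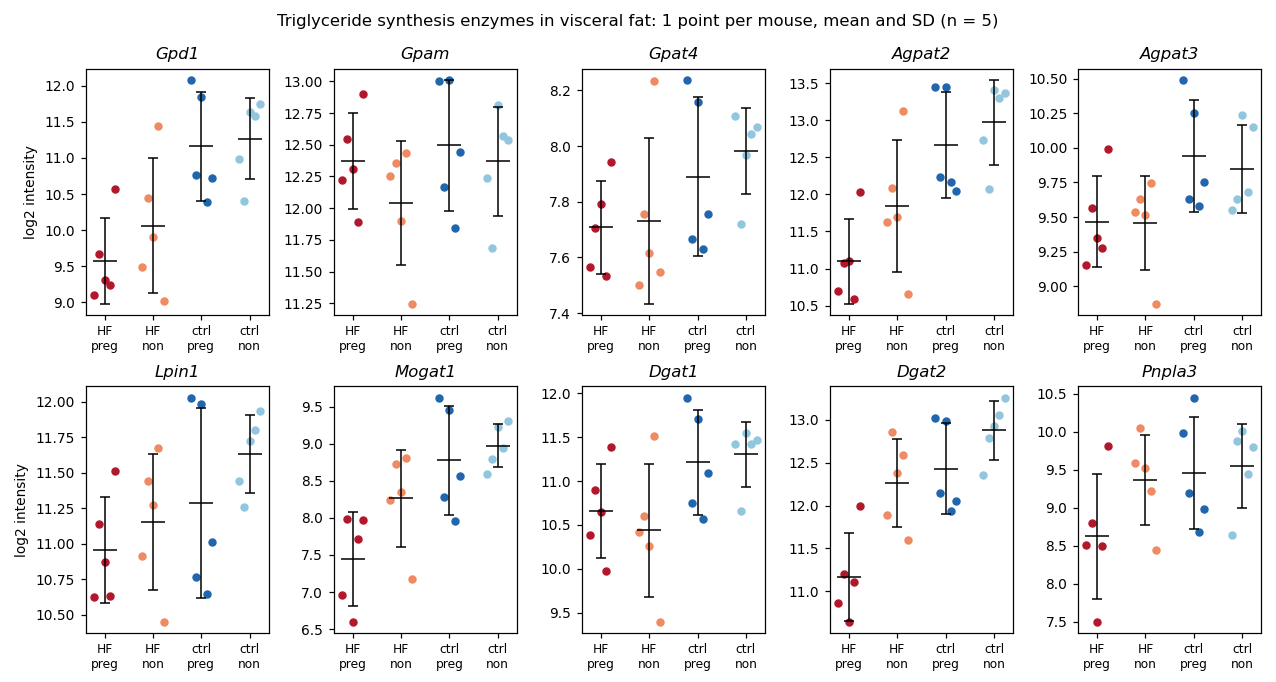
Log2 intensity of each of the 10 genes (y axis, scaled per panel) in the 4 groups (x axis), HF to the left of control. Points are mice, and bars give the group mean and SD (n = 5). Dgat2 lies between 10.65 and 12.00 in HF pregnant mice and at or above 11.59 in all other mice.

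Dgat2, the diacylglycerol acyltransferase that draws largely on newly made fatty acids, is set out mouse by mouse. Its log2 intensities were 10.86, 11.20, 10.65, 11.12 and 12.00 in HF pregnant mice. They were 11.89, 12.86, 12.38, 12.59 and 11.59 in HF non pregnant mice. In control pregnant mice they were 13.02, 12.15, 12.98, 11.94 and 12.05, and in control non pregnant mice 12.35, 12.78, 12.93, 13.05 and 13.26. HF pregnant mice 1 to 4 were below all other 16 mice, and HF pregnant mouse 5 overlapped the low end of the HF non pregnant and control pregnant groups. In order, the group means were 11.17 ± 0.51 in HF pregnant mice, 12.26 ± 0.52 in HF non pregnant mice, 12.43 ± 0.53 in control pregnant mice and 12.87 ± 0.34 in control non pregnant mice (SD, n = 5 each). The HF non pregnant and control pregnant means differed by less than their SD.

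Averaged over pregnancy, Dgat2 fell on the HF diet by a log2 fold change of -0.94 (SE 0.20, 95% interval -1.37 to -0.51, limma adjusted p = 0.034), a 1.91-fold lower level in HF mice. The other Dgat2 probe set gave -1.07 (limma adjusted p = 0.0452). Dgat1, which performs the same reaction, had a diet difference of -0.71 (SE 0.25, limma adjusted p = 0.1), and -0.27 by its other probe set. Pnpla3, a lipid droplet protein of the patatin family with lipase and acyltransferase activities, had one of -0.51 (SE 0.29, limma adjusted p = 0.224).

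Within pregnancy, the diet comparison was HF pregnant against control pregnant mice. All 10 genes had lower means in HF pregnant mice, as did 40% of all tested probe sets, with a median log2 fold change of -0.70 against 0.05 over all tested probe sets. Here 0 of 10 passed limma, where 0.177% of all tested probe sets were called lower and 0.0151% higher, and 5 were lower at an unadjusted p under 0.05 (7.93% of all tested probe sets). The log2 fold changes were -1.58 for Gpd1 (SE 0.43, limma adjusted p = 0.154), -1.57 for Agpat2 (SE 0.42, adjusted p = 0.141) and -1.33 for Mogat1 (SE 0.36, adjusted p = 0.15). Dgat2 gave -1.26 (SE 0.29, 95% interval -1.87 to -0.66, limma unadjusted p = 0.000353, adjusted p = 0.0842). Agpat2 alone did not overlap between the groups, as for 1.95% of all tested probe sets in this direction, which is the most extreme arrangement of 5 against 5 mice (two-sided exact permutation p = 0.00794, unadjusted). Pnpla3 had -0.84, Dgat1 -0.56 (0.032 by its other probe set), Agpat3 -0.48 and Gpam -0.12, which was 0.0064 or 0.0081 without control pregnant mouse 1 or 3.

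Without pregnancy, HF non pregnant mice were compared with control non pregnant mice. Again all 10 means were lower in HF mice, as were 48.4% over all tested probe sets, with a median of -0.55 against 0.01 over all tested probe sets, and 0 of 10 passed limma, as did 0% of all tested probe sets in either direction. At an unadjusted p under 0.05, 4 of 10 were lower, against 7.22% of all tested probe sets. Gpd1 gave -1.21 (SE 0.43) and Agpat2 -1.13 (SE 0.42), each with a limma adjusted p of 0.281. Dgat1 gave -0.86 (SE 0.35), Mogat1 -0.71 (SE 0.36), Dgat2 -0.61 (SE 0.29, adjusted p = 0.281) and Agpat3 -0.39 (SE 0.21). Pnpla3 gave -0.19 (SE 0.41), and 0.044 without HF non pregnant mouse 5.

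**Figure D2:**
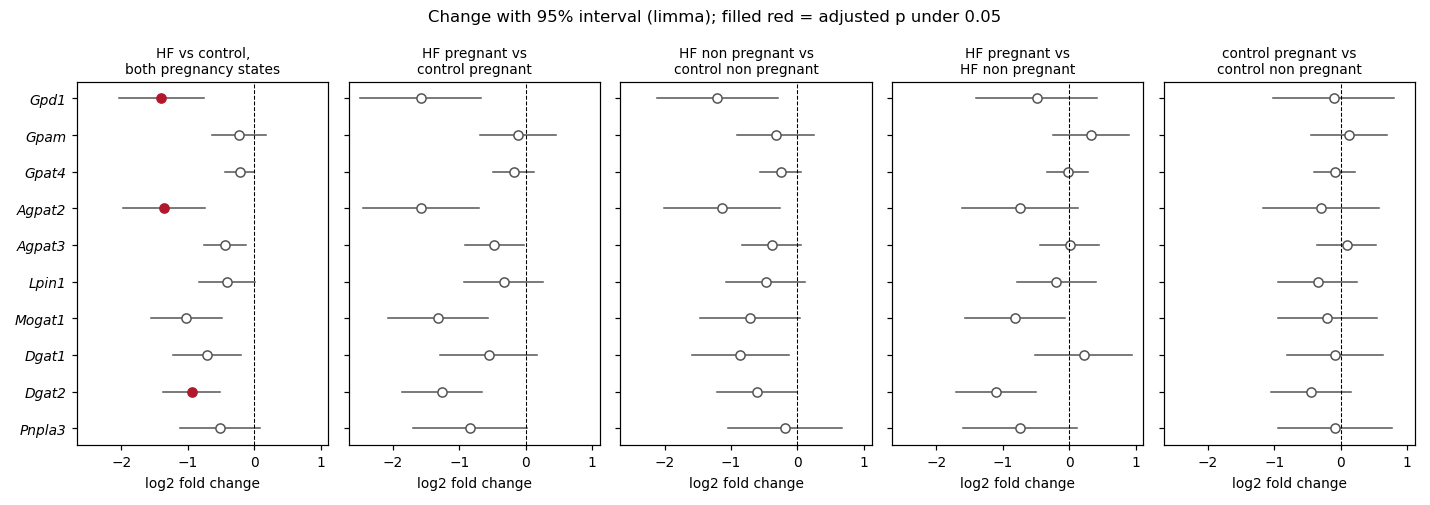
Log2 fold change (x axis) of the 10 genes (rows) with its 95% interval from limma, in 5 comparisons (panels), first-named group over the other. Filled red points passed an adjusted p of 0.05 (Gpd1, Agpat2 and Dgat2 in the diet comparison over both pregnancy states), and the Dgat2 interval between pregnant and non pregnant HF mice is -1.70 to -0.49.

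The effect of late pregnancy on a high fat diet was read from HF pregnant against HF non pregnant mice. Of the 10 genes, 0 passed limma, where 0.0101% of all tested probe sets were called lower and 0.0151% higher, and Dgat2 and Mogat1 were lower at an unadjusted p under 0.05, against 2.45% of all tested probe sets. Dgat2 had the largest difference of the 10, a log2 fold change of -1.10 (SE 0.29, 95% interval -1.70 to -0.49), or 2.14-fold lower in HF pregnant mice. Its limma p was 0.00127 unadjusted and 0.458 adjusted, and the two-sided exact permutation p was 0.0238 (unadjusted, n = 5 each). Dgat2 is also a gene that the study itself names for this comparison of the same arrays, so its values here are no independent evidence. The study also measured Dgat2 by qRT-PCR, which is not part of these data. It reports a selective decrease in HF pregnant mice, against HF non pregnant and against control pregnant mice. The other Dgat2 probe set gave -1.16 (limma adjusted p = 0.599).

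For the remaining enzymes, Mogat1 gave -0.81 (SE 0.36, limma adjusted p = 1), Agpat2 -0.74 (SE 0.42), Pnpla3 -0.74 (SE 0.41), Gpd1 -0.48 (SE 0.43) and Lpin1 -0.20 (SE 0.28). Dgat1 (0.22, SE 0.35) and Gpam (0.33, SE 0.27) had positive values, Dgat1 becoming -0.041 without HF non pregnant mouse 5. Gpat4 and Agpat3 means differed by under 0.03 in size.

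On the control diet, control pregnant against control non pregnant mice gave 0 of 10 genes called (0% of all tested probe sets in either direction) and log2 fold changes between -0.45, for Dgat2 (limma adjusted p = 0.963), and 0.13. Whether the response to pregnancy differed between the diets was tested directly as an interaction. For Dgat2 the difference was -0.65 (95% interval -1.51 to 0.21, limma adjusted p = 0.933), so a diet-dependent response was not resolved on these arrays, and 0 of 10 genes (0% of all tested probe sets) passed. Pnpla3 gave -0.65 and Mogat1 -0.61 in the same test. Averaged over diets, Dgat2 was -0.77 (SE 0.20, limma adjusted p = 0.414) in pregnant relative to non pregnant mice, with 0 of 10 genes called against 0% of all tested probe sets lower and 0.0101% higher. These comparisons share arrays and are not independent of each other.

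Because DGAT1 and DGAT2 catalyse the same step, the Dgat2 log2 intensity minus that of Dgat1 was taken within each array. This measure was chosen after the values had been seen. Exact permutation tests of it were run, but because of that choice their p-values are not given as support. It was 0.48, 0.31, 0.0054, 1.14 and 0.60 in HF pregnant mice and 1.46, 2.26, 2.12, 1.08 and 2.19 in HF non pregnant mice. In control pregnant mice it was 1.07, 1.40, 1.27, 1.37 and 0.96, and in control non pregnant mice 0.93, 2.13, 1.38, 1.63 and 1.79. HF pregnant mouse 4 alone of its group exceeded any mouse of the other groups. The mean was 0.51 ± 0.42 in HF pregnant against 1.82 ± 0.53 in HF non pregnant mice, and 1.21 ± 0.19 in control pregnant against 1.57 ± 0.45 in control non pregnant mice (SD, n = 5 each). The difference of the HF pair, -1.32, combines a Dgat2 difference of -1.10 with a Dgat1 difference of 0.22 (SE 0.35). That Dgat1 difference was not resolved, and it became -0.041 without HF non pregnant mouse 5. Probe sets differ in brightness, so the differences between groups can be read but not which of the transcripts was more abundant.

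**Figure D3:**
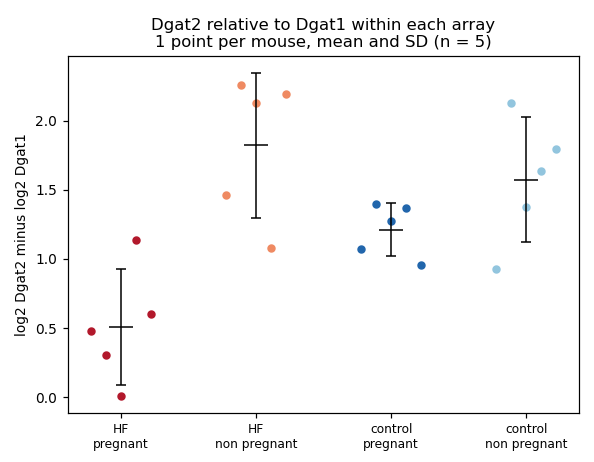
Dgat2 minus Dgat1 in log2 intensity within each array (y axis) in the 4 groups (x axis), with a point for each mouse and bars for the mean and SD (n = 5). HF pregnant mice average 0.51 and HF non pregnant mice 1.82.

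Within groups, the 10 genes varied together from mouse to mouse. Over their 45 pairs, the correlation of deviations from group means had a median of 0.86 (range 0.33 to 0.97, 20 mice), as a description of probe sets that share arrays. Over all arrays, the genes with patterns closest to Dgat2 among 10602 genes were Sc5d (r = 0.968), Kmt5a (0.967), Orm3 (0.964), Cyb5b (0.950) and Mblac2 (0.947), again as a description over 20 arrays. Sc5d is a late enzyme of cholesterol synthesis, Kmt5a methylates histone H4, and Cyb5b is a cytochrome b5. Orm3 lay near the filter threshold, above 100 on 0 of 5 HF pregnant and 3 of 5 HF non pregnant arrays. In control pregnant and control non pregnant mice it exceeded 100 on 4 and 5 arrays. Of the triglyceride enzymes, Mogat1 stood nearest to Dgat2 (r = 0.930, rank 13) and Gpam farthest (r = 0.383, rank 3022).

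Adipocyte markers were also lower on average in HF mice. The 8 tested were Adipoq, Cidec, Fabp4, Lep, Retn, Pparg, Lpl and Slc2a4. The mean log2 deviation of 8 adipocyte genes was -0.22 ± 0.36 in pregnant and -0.08 ± 0.45 in non pregnant HF mice, against 0.09 ± 0.48 in pregnant and 0.21 ± 0.09 in non pregnant control mice (SD, n = 5 each). Their summed intensity ranged between 72372 and 98442 in pregnant and 60108 and 104118 in non pregnant HF mice, and between 74121 and 110153 in pregnant and 91631 and 99745 in non pregnant control mice. In the diet comparison all 8 had lower means in HF mice, with a median of -0.19, where that of the triglyceride enzymes was -0.61. Slc2a4, the insulin-regulated glucose transporter, named after its value was seen, was the only one to pass the test (-1.08, limma adjusted p = 0.0294).

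Other cell type lists also differed between the groups. Of 9 brown fat genes 5 were tested, with a mean log2 deviation of -0.86 ± 0.29 in pregnant and -0.26 ± 0.81 in non pregnant HF mice, against 0.35 ± 0.61 in pregnant and 0.77 ± 0.55 in non pregnant control mice. Cidea, a lipid droplet protein, was the only one of the 5 to pass in the diet comparison (-2.03, limma adjusted p = 0.0249, named after its value was seen), and Ucp1, the defining brown fat protein, reached at most an intensity of 66.9. The deviation of the 9 tested macrophage genes was 0.21 ± 0.23 in pregnant and 0.09 ± 0.23 in non pregnant HF mice, against -0.13 ± 0.49 in pregnant and -0.17 ± 0.20 in non pregnant control mice. That of the 6 tested B cell genes was 0.38 ± 1.30 in pregnant and 0.79 ± 1.19 in non pregnant HF mice, and for control mice -0.36 ± 1.80 with and -0.81 ± 1.23 without pregnancy (SD, n = 5 each). No macrophage or B cell marker passed limma in the diet comparison, and the part of brown fat and macrophage signal in the differences of the triglyceride enzymes was not tested.

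Across mice, as deviations from group means, Dgat2 rose with the adipocyte list (Pearson r = 0.83, permutation p = 1e-05, the smallest that 100000 permutations can give, Spearman rho = 0.77, permutation p = 0.00019, n = 20). Without the 2 mice farthest from the median of the list r was 0.84. Adjusted over the 20 relations computed (10 genes against 2 marker lists), these p-values were 6.7e-05 and 0.0011. All 10 genes had positive r, with Mogat1 highest (0.89) and Gpat4 lowest (0.56). Against the B and T cell list all 10 were negative, between -0.64 for Lpin1 and -0.47 for Gpam. There Dgat2 had r = -0.62 (permutation p = 0.0034, adjusted 0.0062), which became -0.43 without the 2 farthest mice. The share of all tested genes with r in these directions was not computed, so whether the enzymes stand apart was not tested. Permutations moved mice freely across groups, although the SD of the adipocyte list lay between 0.09 and 0.48, so the p-values are approximate.

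With the adipocyte list as a covariate, an alternative chosen after seeing the data, Dgat2 was called in HF pregnant against HF non pregnant mice (-0.94, limma adjusted p = 0.0147) and in HF pregnant against control pregnant mice (-0.93, adjusted p = 0.0154). Both changes were smaller than without it (-1.10 and -1.26), and the count over all tested probe sets was 206 and 219, against 5 and 38 without it. With this covariate the Dgat2 diet difference over both pregnancy states passed (-0.62, limma adjusted p = 0.0331), while those of Gpd1 (-1.0, adjusted p = 0.0765) and Agpat2 (-1.0, adjusted p = 0.0789) no longer did, and 97 of all probe sets were called. With the B and T cell list as the covariate, chosen in the same way, Dgat2 was called in HF pregnant against control pregnant mice (-1.15, limma adjusted p = 0.0267). More probe sets were called there than without the covariate. In HF pregnant against HF non pregnant mice Dgat2 was -1.18 (limma adjusted p = 0.063). With this covariate the Dgat2 diet difference over both pregnancy states was -0.73 (limma adjusted p = 0.0621). None of the 10 genes passed that diet comparison, where 129 probe sets did. Without the 2 arrays high in pancreatic genes, 4 of the 10 passed it, Dgat2, Agpat2, Mogat1 and Gpd1, where 2011 of all 19802 probe sets were called (1078 lower), against 246 (219 lower) with all arrays. Without the 2 arrays high in liver genes, left out after seeing the data, none of the 10 passed it and 37 probe sets did. Dgat2 was then -0.97 in that comparison (limma adjusted p = 0.0711) and -1.02 in HF pregnant against HF non pregnant mice, where no probe set was called.

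**Figure D4:**
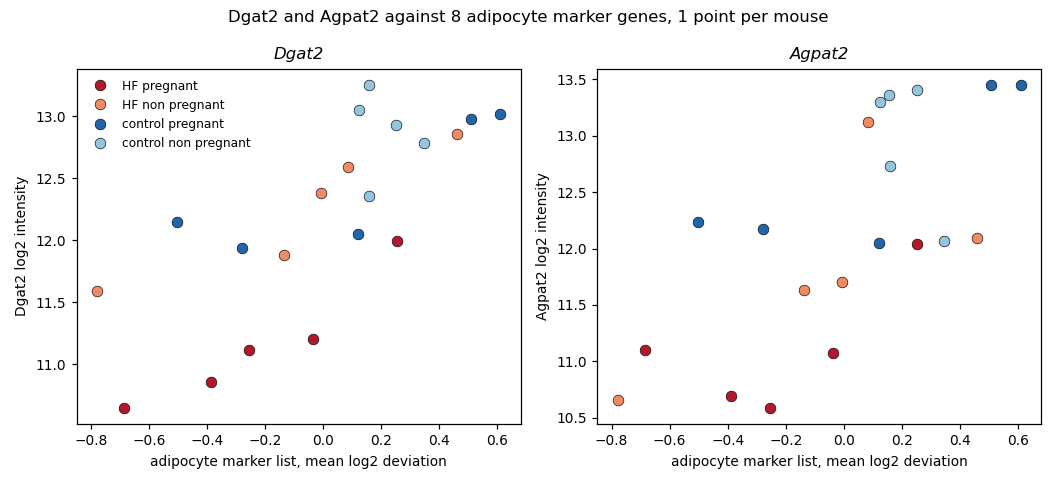
Log2 intensity of Dgat2 and of Agpat2 (y axes) against the mean log2 deviation of 8 adipocyte marker genes (x axis), 1 point per mouse, coloured by group. For Dgat2, HF pregnant mice lie low at a given marker level, and r within groups is 0.83 for Dgat2 and 0.64 for Agpat2.

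Further enzymes of the pathway and of the branch to phospholipids were counted from lists of their own. Of 20 other glycerolipid synthesis genes, 18 were matched and 15 tested. In the diet comparison 1 of the 15 fell and none rose, where 1.11% of all tested probe sets were called lower and 0.136% higher. This was Mogat2, another monoacylglycerol acyltransferase (-1.51, SE 0.32, limma adjusted p = 0.0322), and the median of the list was 0.02. Mogat2 lay near the intensity threshold in HF mice, above 100 on 1 of 5 HF pregnant and 3 of 5 HF non pregnant arrays. Its call was lost in 18 of 35 alternative settings, among them intensities under 100 set to 100 (limma adjusted p = 0.0527). Lpin2 (0.35), Tmem68 (0.18) and Acsl3 (-0.27), an enzyme that activates fatty acids, did not pass. In HF pregnant against HF non pregnant mice none of the 15 passed, and values ranged between -0.85 for Mogat2 and 0.89 for Gpat3, a GPAT of the endoplasmic reticulum, with Plpp3 at 0.49 and Acsl3 at -0.32. With adipocyte markers as covariate, the setting in which Dgat2 was called lower there, Gpat3 (1.07, limma adjusted p = 0.0298) and Plpp3 (0.61, limma adjusted p = 0.0221) were called higher. More probe sets were called in that setting than without the covariate.

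Of 12 genes of the phospholipid branch, 11 were matched and 9 tested. Chpt1, a cholinephosphotransferase that turns diacylglycerol into phosphatidylcholine, fell in the diet comparison (-0.79, SE 0.19, limma adjusted p = 0.0465). It was the only one of the 9 to pass, where 1.11% of all tested probe sets were called lower, and the list median was 0.02. The Chpt1 call was lost in 19 of 35 alternative settings. Pcyt2 (-0.41), Chka (0.44), the choline kinase, and Etnk1 (0.25) did not pass. In HF pregnant against HF non pregnant mice none passed, with Chpt1 at -0.24, Pcyt2 at -0.20, Cept1 at 0.21 and Cds2 at 0.10.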

How the data were processed

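Visceral fat RNA of 20 mice was hybridized to 20 arrays, 5 per group. Per the labels, the authors normalized the scans by robust multi-array average (affy, R 2.8.0), and they deposited linear intensities, which were put on the log2 scale without further normalization. This method can shrink differences at low intensity. The methods name Qiagen columns and the labels Trizol; neither gives a batch. Gene names come from the platform annotation: of 45101 probe sets, 34958 carry 1 symbol, 932 several, and 9211 are unnamed here. The 64 control probe sets were left out, and probe sets with at least 5 of 20 arrays above 100 were tested (19802, 43.91%).

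With limma 3.58.1 (R 4.3.3), 4 group means were fitted to each probe set, and 7 comparisons were read, with Benjamini-Hochberg adjustment over all tested probe sets and a threshold of 0.05. Single genes were also compared by two-sided exact permutation over 252 regroupings, for which 0.00794 is the smallest p that 5 against 5 mice allow. The procedure was tested on simulated data. The number of arrays limits the precision. The 10 genes, the pathway and marker lists and the tests were chosen with earlier results of these data known. Named genes are the 10, those of the other lists that passed or had the 2 highest or 2 lowest changes in the diet or HF pregnant against HF non pregnant comparison, and the 5 nearest to Dgat2. Coordinates and promoter windows are from RefSeq, GRCm38.p6. Alternatives covered the filter, array weights, normalization, other probe sets, a replicate block, marker covariates, each array left out and, chosen after seeing the data, the 2 arrays high in liver or pancreatic genes left out.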

Additional observations from a re-analysis of the deposited data

Results flagged for a closer look

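Among the 10 genes and 4 groups, and the Dgat2 minus Dgat1 difference in the same groups, the lowest or highest mouse was screened for a wide gap to the rest of its group, a screen in which chance flags about 1 in 20 groups. Dgat1 in control non pregnant mouse 2 had a log2 intensity of 10.65, where the next lowest mouse of that group had 11.42, a gap of 0.855 of the range of the group. Agpat3 in HF non pregnant mouse 5 had 8.874, where the next lowest had 9.515, a gap of 0.735 of the range. Of 44 groups screened these 2 exceeded the limit.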

How the results depend on the processing

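Over both pregnancy states, the 3 genes called in the diet comparison became 0 with no filter, 0 with the replicate block, 0 without the 2 arrays high in liver genes, 0 with B and T cell markers as covariate, 1 with adipocyte markers as covariate, 5 at an unadjusted p under 0.05 with 1.5-fold and 9 with array weights. The count over all probe sets was 112, 19, 37, 129, 97, 628 and 9136 in these settings, against 246. Leaving out 1 array gave 0 to 6, with 41 to 4321 over all probe sets. None was called without control non pregnant mouse 3, 4 or 5, HF non pregnant mouse 1, 3 or 5, control pregnant mouse 1 or 3, or HF pregnant mouse 1, 2, 3 or 4; the highest count came without control pregnant mouse 2. HF pregnant against HF non pregnant mice gave 5 calls with array weights, 2 at an unadjusted p with 1.5-fold and 1 (Dgat2) with adipocyte markers as covariate, with 2679, 251 and 206 over all probe sets, against 5. HF pregnant against control pregnant mice gave 4, 4 and 2, and 1 with B and T cell markers, with 1365, 561, 219 and 141 over all probe sets, against 38. HF non pregnant against control non pregnant mice gave 7 with array weights and 4 at an unadjusted p with 1.5-fold, with 7489 and 774 over all probe sets, against 0. Pregnancy averaged over diets gave 5, 1 and 1 (Dgat2), with 1706, 105 and 100, against 2. The replicate block rested on numbers only: 10 of 30 pairs of arrays with the same number correlated over 0.1 (median r = -0.16). Pairs with different numbers were not computed, so this does not settle whether the numbers pair the mice. With the block, the limma adjusted p for Agpat2, Dgat2 and Gpd1 was 0.108.

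In the counts that follow, the Dgat2 minus Dgat1 difference was judged by an unadjusted exact permutation p of 0.05. Of 2012 recomputed values of 58 single results, 1839 kept their direction and side of the threshold. Another 88 lost the threshold, 68 gained it and 17 changed sign. In HF pregnant against HF non pregnant mice these were Cds2 with array weights (-0.075), Dgat1 without HF non pregnant mouse 5 (-0.041, range -0.041 to 0.49 over arrays left out) and Gpd1 by 2 probe sets under the intensity filter (0.026 and 0.037). In HF pregnant against control pregnant mice they were Dgat1 by its other probe set (0.032), Gpam without control pregnant mouse 1 or 3 (0.0064 and 0.0081, range -0.28 to 0.0081 over arrays left out) or with adipocyte markers as covariate (0.15), and Gpd1 by a probe set under the filter (0.067). In HF non pregnant against control non pregnant mice, Pnpla3 was 0.040 with array weights, 0.044 without HF non pregnant mouse 5 (range -0.42 to 0.044 over arrays left out), 0.21 with B and T cell and 0.23 with adipocyte markers as covariate, and Dgat2 minus Dgat1 was -0.045 by the other Dgat1 probe set. In the diet comparison, Gpam was 0.028 with adipocyte markers as covariate, and probe sets under the filter gave 0.11 for Gpat4 and 0.025 for Gpd1. The cause of these changes was not tested.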
